A study of Schizosaccharomyces pombe with 12 samples.

Results

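Fission yeast (Schizosaccharomyces pombe) kept for 24 h in heavy water was compared with the same yeast growing in ordinary water, across all protein-coding genes. The comparison takes 8 of the 12 samples of the series: 4 taken after 24 h in 100% D2O and 4 untreated controls in H2O. The remaining group of 4, sampled after 5 h in 100% D2O, entered the same statistical model and is used only to say where the late state differed from the early one. Every group was wild type and free of selection markers, was described by the submitters as in exponential phase, and grew in YES, a rich medium of yeast extract and glucose with added adenine, uracil and leucine. Total RNA was extracted with hot phenol and sequenced. The tables list 7015 features, of which 5105 are protein-coding, and 5089 of these had enough reads to be tested. The controls were untreated, and no H2O culture of the same age is among the samples analysed here, so the effect of D2O cannot be told apart from that of culture age or of the move to new medium.

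D2O is water whose hydrogen is deuterium, which forms stronger bonds than ordinary hydrogen, and many organisms grow slowly or not at all in it. Fission yeast in rich glucose medium devotes much of its messenger RNA to making ribosomes and to glycolysis. When growth slows or stress sets in, ribosomal and stress transcripts are known to move in opposite directions in this yeast: the stress-activated kinase Sty1 and its transcription factor Atf1 switch on a core set of stress genes, while growth genes are shut down.

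Total counts per sample were alike, from 26971908 to 27041947 in the controls and from 26858891 to 27096763 at 24 h. The groups of the samples compared stood far apart, with 93.0% of the variance of log2 expression on the first principal component. Within each group, replicates had a Spearman correlation of at least 0.9947 across features, and no pair of replicates was so alike that it could be one library listed again (chi-square of the counts at least 10.4 per degree of freedom). One 24 h library, replicate 2, had 2.84% of its reads on rRNA features against 0.113% to 0.173% in the other 24 h libraries. Without it 4112 protein-coding genes changed, against 4185 with it. All 5 genes listed as markers of growing cells, such as cdc2 and act1, were detected in every group, although 3 of them were lower and 1 higher at 24 h and their summed CPM was 13184 to 16892 in the controls and 9440 to 10907 at 24 h. Also detected were all 6 genes that common auxotrophic strains lack or carry as mutants (ura4, leu1, ade6, his3, lys1 and arg3). Of these, 4 were lower and 0 higher at 24 h, with a summed CPM of 1668 to 1874 in the controls and 1200 to 1291 at 24 h. Detection cannot tell a wild-type copy from a mutant one, so it does not settle the genotype. The labels number the replicates but do not say whether they were separate cultures, so the p-values measure only the spread between these samples, which may be technical.

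After 24 h in D2O, 4185 of the 5089 genes tested (82.2%) were called changed, which means an adjusted p under 0.05 against control by the quasi-likelihood test of edgeR. Transcripts for ribosomes, translation factors and cell separation fell nearly as a whole, and most of those for nucleotide and amino acid synthesis fell. Transcripts for autophagy, stress defence, trehalose metabolism and parts of respiration rose. There were 2143 higher genes (42.1%) and 2042 lower genes (40.1%). At least 2-fold changes were found in 560 higher genes (11.0%) and 430 lower genes (8.45%), and the median absolute log2 fold change was 0.43. The large changes lay on the upper side: 98 genes were at least 8-fold higher and 6 at least 8-fold lower, and 50 genes were at least 16-fold higher and 0 were at least 16-fold lower. Expression is given below as CPM, read counts scaled to a common library total after TMM scaling between samples. In 3952 genes (77.7%) the CPM of the control and 24 h samples did not overlap. These numbers are relative levels in bulk RNA, in which fewer cells of a kind and less RNA per cell cannot be told apart. The split into higher and lower genes depends on the scaling: with library size alone there were 2736 higher and 1496 lower genes, and the median log2 fold change over all genes was 0.19 in place of 0.01.

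**Figure D1:**
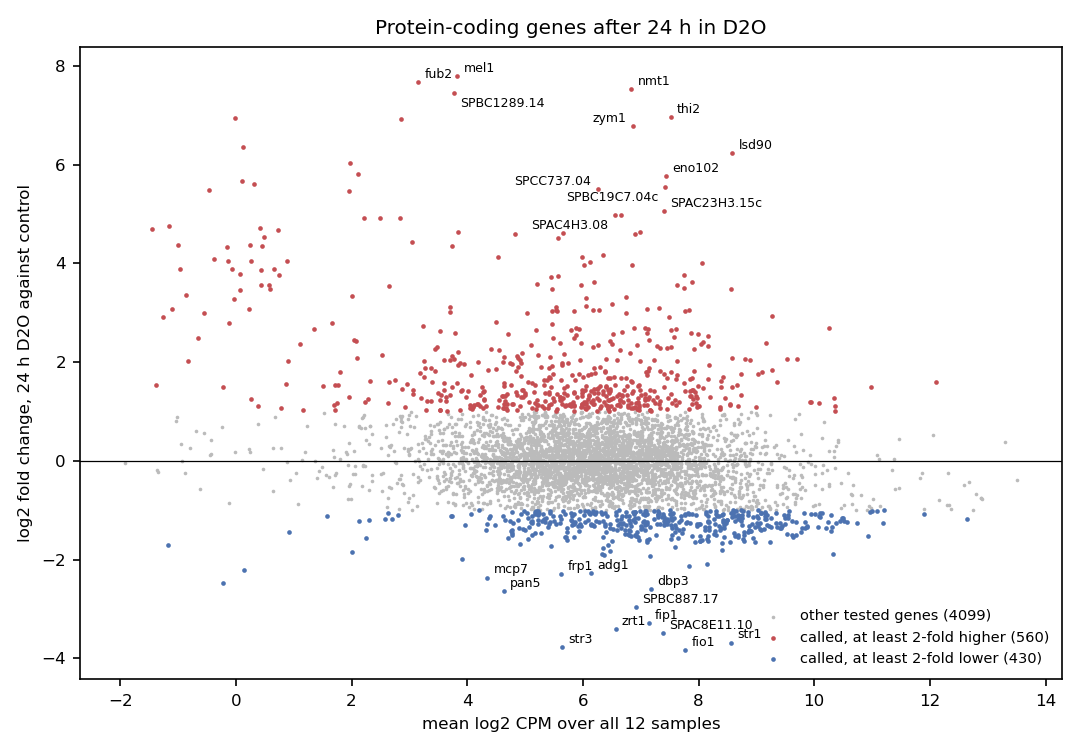
Log2 fold change at 24 h in D2O against control (vertical axis) by mean log2 CPM over all 12 samples (horizontal axis) for the 5089 protein-coding genes tested, 1 point per gene. Red points are the 560 genes called at least 2-fold higher and blue points the 430 called at least 2-fold lower. The names mark 12 genes at each end, picked among well-expressed genes, and the rises reach further from 0 than the falls.

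The genes were described by function in 63 lists that together hold 1121 different genes. Lists share members, and each is given by its counts and its median log2 fold change, to be read against the shares above and against a median of 0.01 over all genes tested. In 18 of the 63 lists at least 75% of the members tested were called in the same direction.

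**Figure D2:**
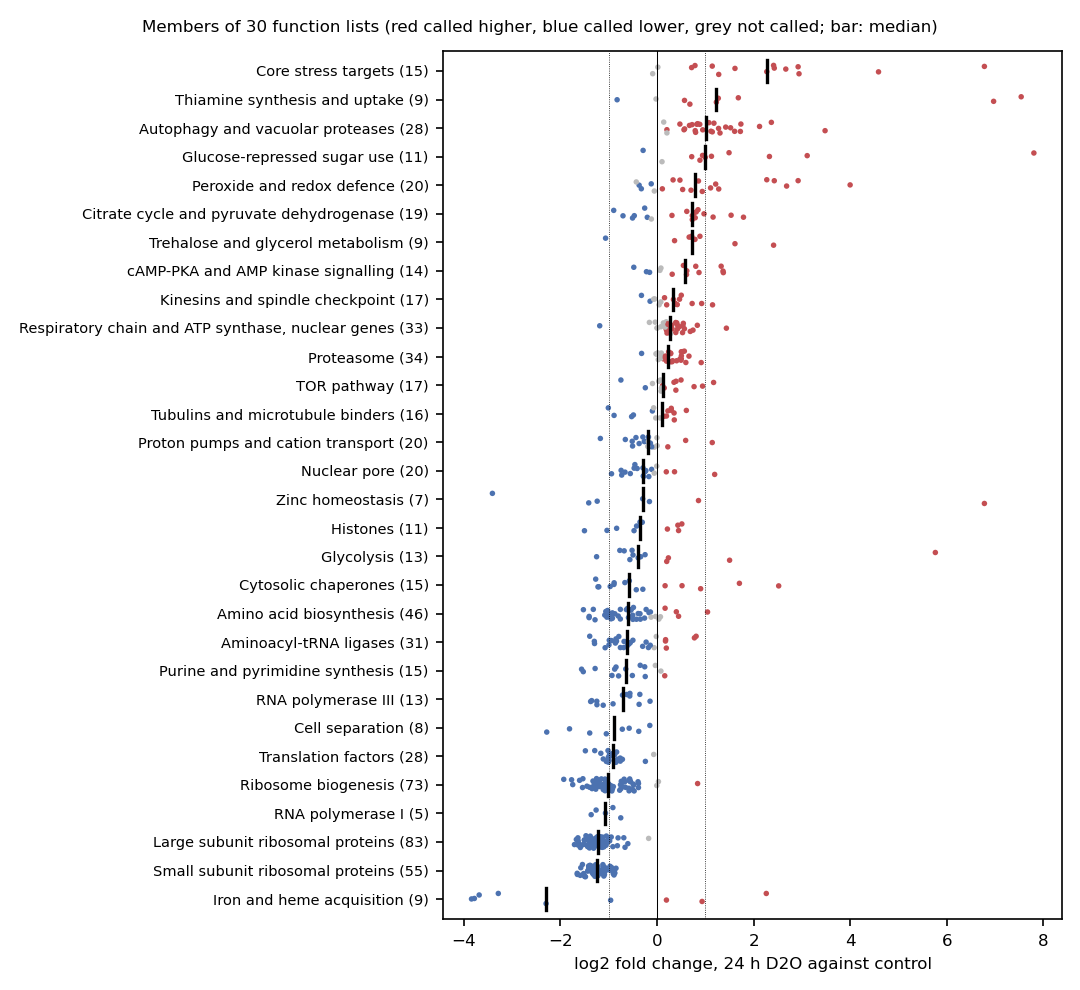
Log2 fold change at 24 h against control (horizontal axis) of each tested member of 30 function lists, with the number tested in brackets. Red points were called higher, blue points called lower and grey points not called, and the bar is the median. Ribosomal protein genes form tight groups near a log2 fold change of -1.2, whereas iron, zinc and chaperone genes split widely within their lists.

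The machinery that builds and runs ribosomes showed the broadest fall. Of the 83 genes for large subunit ribosomal proteins, 82 were lower at 24 h and 0 were higher, with a median log2 fold change of -1.22. All 55 small subunit genes were lower, with a median of -1.25. In both subunits together, 118 of 138 genes fell at least 2-fold. The single gene that was not called was rpp202, for a stalk protein of the large subunit, which overlaps SPBC23G7.14 (log2 fold change -0.17, SE 0.12, adjusted p = 0.182); without control replicate 1 it was called lower (-0.26, adjusted p = 0.0373). Together the large subunit genes went from 15.5% ± 0.847 in the controls to 8.34% ± 0.201 at 24 h of the summed length-normalised signal of protein-coding genes (SD over 4 samples), and the small subunit genes from 11.6% ± 0.470 in the controls to 6.24% ± 0.194 at 24 h. The steepest falls were in rpp203, rpl3601, rps1402 and rps403. The CPM of rps403, one of the genes for small subunit protein eS4, was 1056, 1109, 1264 and 1023 in the controls and 363, 392, 333 and 333 at 24 h, so that each 24 h sample was lower than all of the controls (log2 fold change -1.65, SE 0.072, adjusted p = 2.39e-11). For rpl3601, a gene for large subunit protein L36, it was 614, 574, 822 and 624 and 238, 201, 199 and 189 (log2 fold change -1.67, SE 0.11, adjusted p = 1.66e-09). Both genes sat in between at 5 h, at 558 ± 22.1 CPM and 290.3 ± 23.8 CPM, and fell further by 24 h.

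Ribosomal protein promoters of fission yeast carry a short element, the HomolD box, that directs their transcription. It was looked for as CAGTCACA on both strands in the 250 bases upstream of each annotated gene start, and 88 of 138 ribosomal protein genes (63.8%) held it, against 2.63% of all 5104 protein-coding promoters. Its median start lay 51 bases before the gene start in those 88. The promoters of rps403 (chrI:3398991-3399240, plus strand) and rpl1902 (chrIII:400503-400752, plus strand) are shown because both hold the box at about that place, on opposite strands, with the box in capitals (RefSeq, ASM294v3, 5′ to 3′ along the gene).
rps403: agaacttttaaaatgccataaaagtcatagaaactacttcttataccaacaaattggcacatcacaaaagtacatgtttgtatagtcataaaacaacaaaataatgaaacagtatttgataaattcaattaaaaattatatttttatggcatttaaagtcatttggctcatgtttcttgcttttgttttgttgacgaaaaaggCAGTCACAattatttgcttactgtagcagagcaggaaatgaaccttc
rpl1902: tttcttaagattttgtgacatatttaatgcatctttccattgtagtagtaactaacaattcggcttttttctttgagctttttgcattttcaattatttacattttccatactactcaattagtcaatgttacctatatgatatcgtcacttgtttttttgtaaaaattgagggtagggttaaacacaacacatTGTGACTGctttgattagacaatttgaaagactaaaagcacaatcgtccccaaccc
The second gene, rpl1902, chosen for its box after its values were seen and coding for large subunit protein L19, had a CPM of 867, 882, 1049 and 924 in the controls and 331, 293, 299 and 275 at 24 h (log2 fold change -1.64, SE 0.069, adjusted p = 1.54e-11). The median log2 fold change was -1.23 with it and -1.19 without it in the large subunit, and -1.22 with it and -1.27 without it in the small subunit. Outside these lists 46 tested genes held the box, and of them 34 were lower and 7 higher, with a median of -0.79.

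Ribosome assembly followed. Of 73 genes listed for ribosome biogenesis, 70 fell, 39 of them at least 2-fold, with a median log2 fold change of -1.02. The 1 member that rose, rrp2, came in by its symbol and is annotated as a SUMO-targeted ubiquitin ligase. The other two, rrp40 and rrp42, were not called. The leading falls were in the RNA helicase gene has1 and in rpf2, whose budding yeast counterpart takes part in large subunit assembly. The CPM of has1 was 290.4, 289, 308 and 288 in the controls and 77.4, 79.3, 80.8 and 71.1 at 24 h (log2 fold change -1.93, SE 0.051, adjusted p = 8.57e-14). That of rpf2 was 155, 162, 163 and 152 and 46.9, 47.3, 45.8 and 45.8 (log2 fold change -1.77, SE 0.035, adjusted p = 6.01e-15). A further helicase gene, dbp3, had a larger fall (log2 fold change -2.60, SE 0.051, adjusted p = 5.96e-15), although it overlaps the gene npg1 and may share reads with it. All 5 genes listed for RNA polymerase I, which transcribes ribosomal RNA, were lower (median -1.07), as were all 13 for RNA polymerase III, which makes transfer RNA and 5S RNA (median -0.71). The largest subunit of polymerase I, nuc1, stood at 1138 ± 22.4 CPM in the controls and 475 ± 6.48 at 24 h (SD, n = 4).

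Translation factors fell in 27 of 28 cases with a median of -0.91, and the remaining gene, tif5, which overlaps pmc2 and pol4, was not called (-0.07, adjusted p = 0.424). The 3 genes for elongation factor EF-1 alpha, tef101, tef102 and tef103, are among the 10 most abundant transcripts of the controls. Their log2 fold changes were -0.89, -0.79 and -0.98. These copies are near-identical, so the reads may be divided between them with error, and tef101 and tef102 also overlap other genes. The gamma subunit of initiation factor eIF2, tif213, fell furthest, from 568 ± 42.5 CPM to 203 ± 17.2 (log2 fold change -1.48, SE 0.071, adjusted p = 5.76e-11). Aminoacyl-tRNA ligases, which charge transfer RNA, fell in 24 of 31 genes and rose in 5. The largest of these rises, in msm1 for methionine and SPCC576.06c for tyrosine, were log2 fold changes of 0.78 and 0.81, and msm1 overlaps cdc1.

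Biosynthesis of amino acids and nucleotides was lower in most of its genes. Of 46 amino acid genes, 38 fell, 4 rose and 4 were not called, with a median log2 fold change of -0.60. The first enzyme of histidine synthesis, his1, had a CPM of 475, 458, 504 and 471 in the controls and 176, 172, 159 and 158 at 24 h, with no overlap (log2 fold change -1.52, SE 0.051, adjusted p = 1.21e-12). The largest rise in the list was in met6, for homoserine O-acetyltransferase of methionine synthesis, from 275 ± 11.0 CPM to 568 ± 15.9 (log2 fold change 1.05, SE 0.053, adjusted p = 1.05e-10). Purine and pyrimidine synthesis had 12 lower genes of 15 and a median of -0.65. Its largest falls were in ade9 (-1.56) and ade1 (-1.53), which both overlap other genes, while ura4 (-0.03, adjusted p = 0.677) and ade6 (0.08, adjusted p = 0.121) were not called. Without 24 h replicate 3, ade6 was called higher (0.11, adjusted p = 0.0458).

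**Figure D3:**
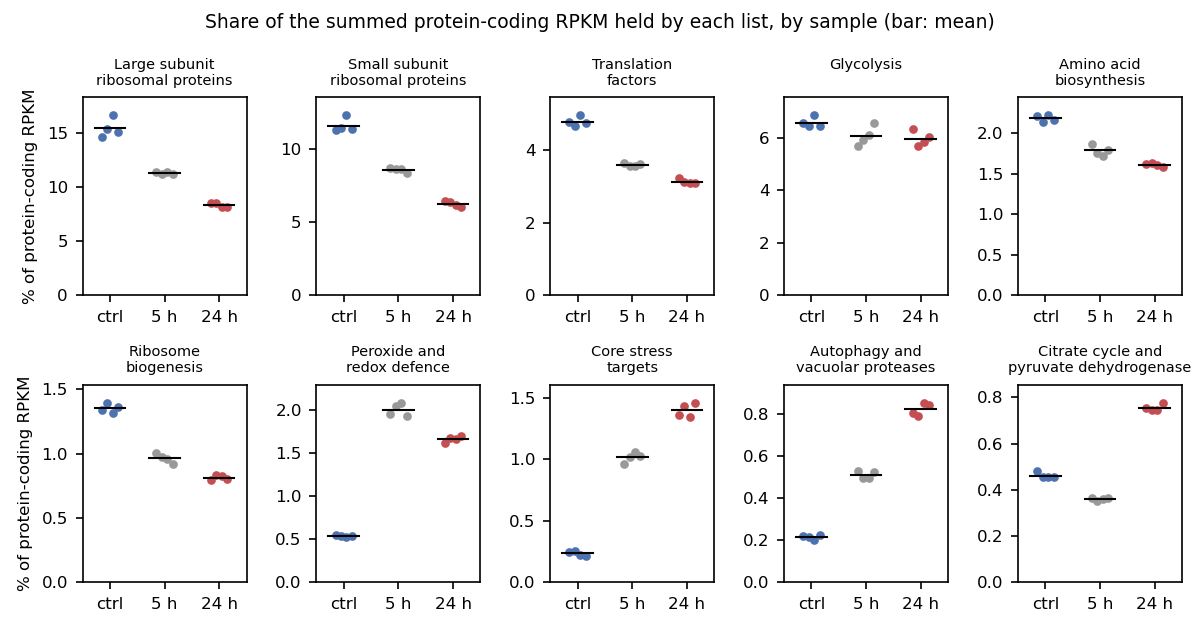
Percentage of the summed protein-coding RPKM held by 10 function lists in each of the 12 samples (points, 4 per group; the bar is the mean; each axis starts at 0). Ribosomal protein, translation factor and biogenesis shares step down from control to 24 h, and core stress and autophagy shares step up.

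Recycling genes moved the other way. Of 28 genes for autophagy and vacuolar proteases, 26 were higher at 24 h, 14 of them at least 2-fold, and 0 were lower; the median log2 fold change was 1.01. The other two, atg12, which overlaps hrp1 (0.21, adjusted p = 0.0608) and atg16 (0.14, adjusted p = 0.11), were not called. Leaving out 1 library brought each past the threshold: atg12 without 24 h replicate 1 (0.25, adjusted p = 0.0354) or replicate 4 (0.24, adjusted p = 0.0458), and atg16 without 24 h replicate 2 (0.18, adjusted p = 0.0493). The vacuolar serine protease gene isp6 had a CPM of 130.1, 112, 123 and 109.9 in the controls and 1381, 1246, 1302 and 1368 at 24 h, an increase of 11.2-fold (log2 fold change 3.48, SE 0.067, adjusted p = 5.45e-15). Its level at 5 h was 349 ± 16.7, above every control and below every 24 h sample. The protease gene psp3 rose 5.16-fold, from 133, 126, 130.5 and 124 to 638, 696, 669 and 646 CPM (log2 fold change 2.37, SE 0.076, adjusted p = 7.29e-13). Proteasome genes, which serve the other main route of protein breakdown, rose in 23 of 34 cases but by little: the median was 0.23 and 0 rose 2-fold. The core particle gene pre4 went from 121 ± 9.30 CPM to 191 ± 5.58 (log2 fold change 0.66, SE 0.058, adjusted p = 5.86e-08). The core particle gene pre1 had a larger change of 0.92, and it overlaps mrp11.

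Stress defence rose in most of its genes. Of 15 core stress genes 13 were higher and 0 lower, with a median log2 fold change of 2.27, and rds1 (-0.09, adjusted p = 0.389) and pyp2 (0.02, adjusted p = 0.872), which both overlap other genes, were not called. The metallothionein gene zym1, for a small metal-binding protein, went from 6.01, 9.04, 6.57 and 5.79 CPM in the controls to 759.8, 728, 731 and 795 at 24 h, a 109.8-fold rise. Among 20 genes for peroxide and redox defence 15 rose and 3 fell. The glutathione S-transferase gene gst2 had a CPM of 38.02, 41.1, 43.1 and 36.3 in the controls and 601, 669, 626 and 638 at 24 h (log2 fold change 4.00, SE 0.07, adjusted p = 1.81e-15), and the catalase gene ctt1 had 98.1, 89.5, 84.0 and 66.6 and 681, 624, 612 and 647 (log2 fold change 2.92, SE 0.11, adjusted p = 2.88e-12). In both genes all the 24 h samples were far above the controls. They differ in their course: gst2 was at 759 ± 44.4 at 5 h and a little lower by 24 h (log2 difference -0.26, SE 0.062, adjusted p = 0.00186), whereas ctt1 was at 109 ± 10.6 and rose further (log2 difference 2.55, SE 0.10, adjusted p = 4.40e-11). The cytosolic superoxide dismutase gene sod1 had a CPM of 251, 284, 291 and 264 in the controls and 296, 181, 172 and 161 at 24 h and was not called (-0.43, SE 0.27, adjusted p = 0.153). Only 24 h replicate 1 was not below the controls, and without it sod1 was called lower (-0.67, adjusted p = 0.0313).

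Chaperones split. All 4 genes of the list of small heat shock proteins and their regulator Hsf1 rose, and 5 of 15 cytosolic chaperone genes rose while 10 fell. The small heat shock protein gene hsp16 went from 17.3, 23.4, 20.1 and 18.1 CPM to 444, 484, 454 and 518 (log2 fold change 4.59, SE 0.091, adjusted p = 5.96e-15). The Hsp70 gene ssa1 went from 92.1, 78.7, 83.1 and 79.4 to 515, 502, 414 and 481 (log2 fold change 2.52, SE 0.074, adjusted p = 2.99e-13), and the disaggregase gene hsp104 from 148 ± 16.9 to 482 ± 25.4 (log2 fold change 1.71, SE 0.076, adjusted p = 2.84e-11). On the falling side were the Hsp110 gene pss1 and the genes ssz1, zuo1 and sks2, whose products work on nascent chains at the ribosome. The CPM of pss1 was 2073, 1985, 2100.2 and 2002 in the controls and 890.0, 957, 856 and 797 at 24 h (log2 fold change -1.22, SE 0.065, adjusted p = 1.88e-10), and that of ssz1 was 865 ± 39.9 and 359 ± 14.2 (log2 fold change -1.27, SE 0.052, adjusted p = 1.04e-11). The log2 fold changes of zuo1 and sks2 were -1.20 and -0.89. Compared with 5 h, 14 of 15 cytosolic chaperone genes were lower at 24 h and 0 were higher, where 34.8% of all genes tested were lower and 35.2% higher. The same held for 6 of 6 mitochondrial chaperone genes.

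The heat shock element, to which Hsf1 binds, was searched as GAANNTTC, which reads the same on both strands and stands in 9.46% of all promoters. It was present in 9 of the 15 cytosolic chaperone promoters, and of these 9 genes 2 rose and 7 fell at 24 h. The promoters of hsp16 (chrII:2660993-2661242, minus strand) and ssa1 (chrI:2297965-2298214, minus strand) are shown with the element in capitals, since hsp16 rose most among the chaperone genes and ssa1 rose most in the cytosolic list, which mostly fell.
hsp16: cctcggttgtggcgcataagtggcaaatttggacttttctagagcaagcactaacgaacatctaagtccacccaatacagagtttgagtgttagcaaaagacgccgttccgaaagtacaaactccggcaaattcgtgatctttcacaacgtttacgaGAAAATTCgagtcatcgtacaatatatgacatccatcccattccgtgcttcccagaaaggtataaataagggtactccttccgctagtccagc
ssa1: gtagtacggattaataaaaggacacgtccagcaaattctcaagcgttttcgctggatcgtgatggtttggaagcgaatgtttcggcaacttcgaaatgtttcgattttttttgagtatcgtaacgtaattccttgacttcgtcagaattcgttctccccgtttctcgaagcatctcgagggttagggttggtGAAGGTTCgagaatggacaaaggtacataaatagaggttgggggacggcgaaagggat
A match in these letters describes the promoter and says nothing about binding in these cells.

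**Figure D4:**
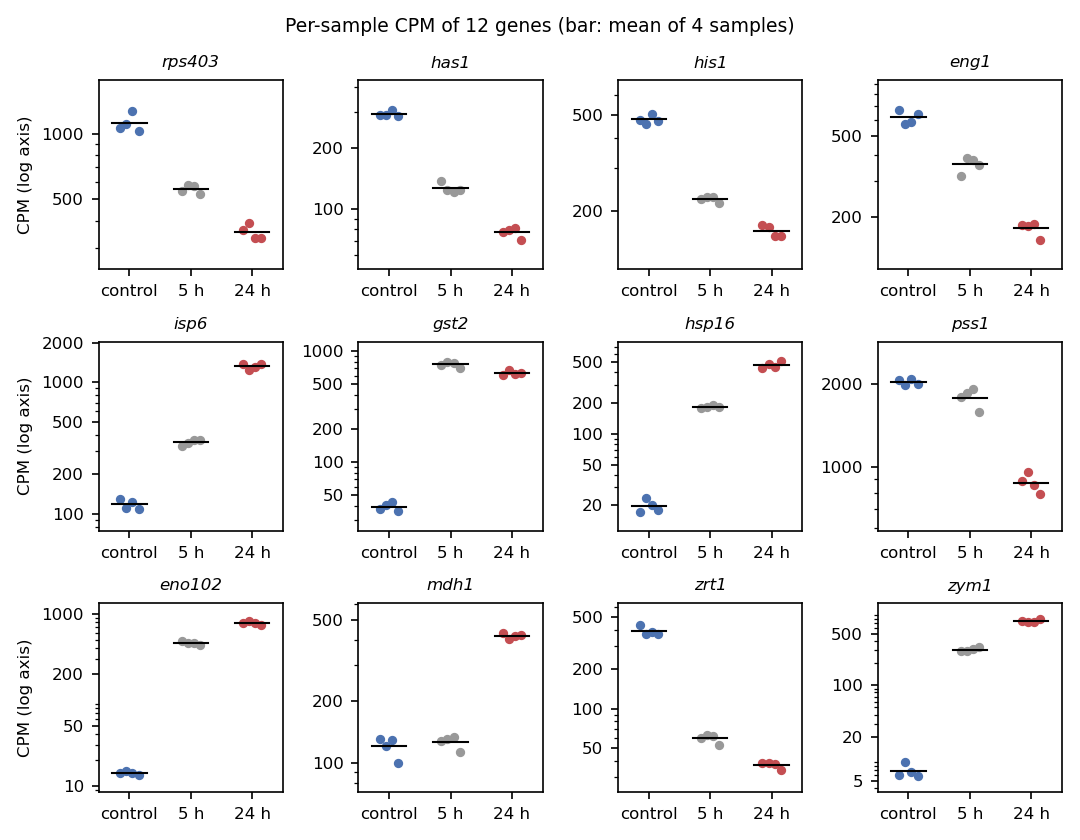
CPM (vertical log axis) of 12 genes in each of the 12 samples; each panel has 4 points per group for control, 5 h and 24 h in D2O, and a bar at the mean. The control and 24 h points do not overlap in any panel, and mdh1 at 5 h lies among its control values.

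In carbon metabolism, copies of the same enzyme could change in opposite directions. Of 13 glycolysis genes 9 fell and 4 rose. The main enolase gene, eno101, fell from 8977, 8277, 10444 and 7993 CPM to 6365, 5341, 5532 and 5063, whereas its sister gene eno102 rose from 14.5, 15.05, 14.4 and 13.6 to 787, 833, 773 and 737.2, which is 54.3-fold (log2 fold change 5.76, SE 0.063, adjusted p = 3.56e-17). Measured per length, eno102 supplied 0.155% ± 0.0175 of the enolase transcript in the controls and 11.8% ± 1.00 at 24 h (SD, n = 4). For glyceraldehyde-3-phosphate dehydrogenase, the share of gpd3 went from 9.06%, 10.7%, 9.51% and 10.1% in the 4 controls to 29.6%, 31.2%, 27.8% and 26.7% in the 4 samples at 24 h. These shares do not depend on scaling between samples. The coding sequences of eno101 and eno102 are 65.0% identical, with 18 bases as the longest shared run, while tdh1 and gpd3 are 93.3% identical and share a run of 203 bases, so reads may be divided between the latter pair with error. The families were chosen for a closer look after their values had been seen.

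Pyruvate decarboxylase, which turns pyruvate toward ethanol, has 4 genes in the tables, and all 4 were called higher. The major gene SPAC1F8.07c, among the 10 most abundant transcripts, rose only 1.31-fold (log2 fold change 0.39, SE 0.067, adjusted p = 8.22e-05). The minor gene SPAC3G9.11c went from 26.4, 30.1, 26.1 and 23.8 CPM to 542, 452, 462 and 464 (log2 fold change 4.17, SE 0.082, adjusted p = 5.96e-15) and its share of the family from 0.215% ± 0.0297 to 2.86% ± 0.162. Nearly all of that rise came after 5 h, when its level was 42.0 ± 2.46 CPM. The gene SPAC186.09 rose from 0.955 ± 0.188 CPM to 29.1 ± 1.65; its control counts were 19 to 28 reads per sample.

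Shares also shifted in other families. For the external NADH dehydrogenases of mitochondria, which feed electrons into the respiratory chain, nde2 fell (log2 fold change -1.19, SE 0.062, adjusted p = 1.64e-10) and nde1, which overlaps rrp46, rose (log2 fold change 0.84, SE 0.037, adjusted p = 2.76e-11). The share of nde1 was 10.8%, 12.5%, 12.1% and 11.9% in the controls, 11.8% ± 0.283 at 5 h (SD, n = 4) and 33.0%, 36.4%, 34.0% and 37.6% at 24 h, so the shift came between 5 h and 24 h. For glycerol-3-phosphate dehydrogenase, the first enzyme of glycerol synthesis, gpd1 rose (0.79, adjusted p = 1.67e-06) and gpd2 fell (-1.06, adjusted p = 1.02e-10). Here the major gene gained, gpd1 going from 72.2% ± 2.45 of the family to 90.4% ± 0.746 (SD, n = 4). The coding sequences of these pairs are 64.7% and 65.8% identical.

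**Figure D5:**
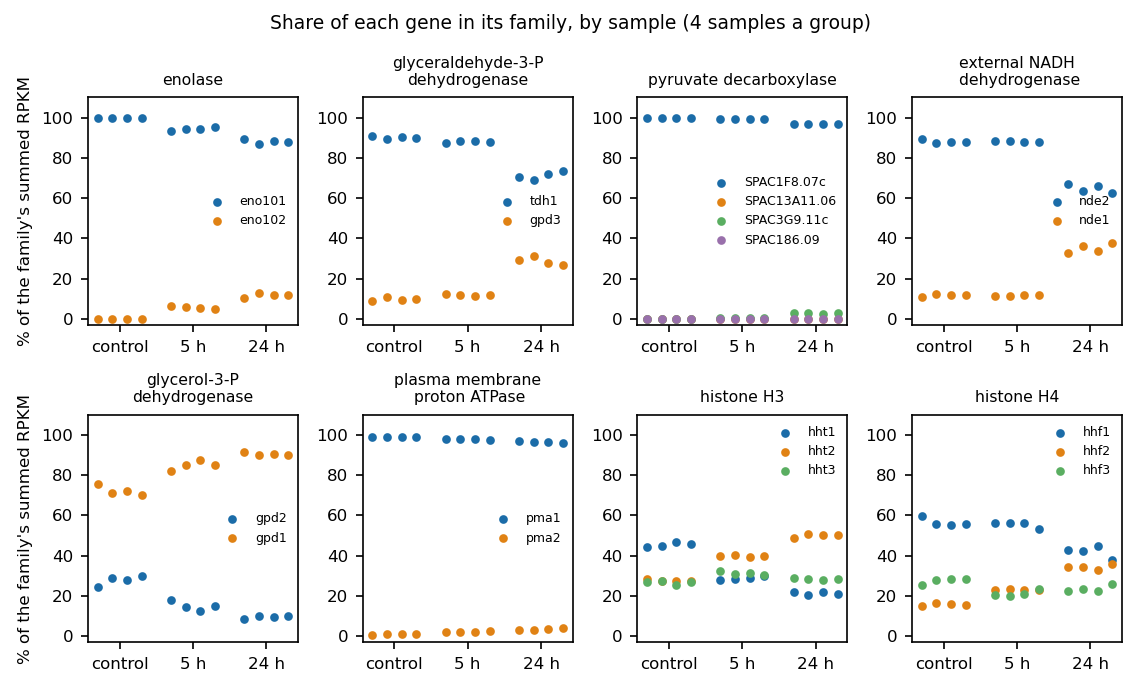
Percentage of the summed RPKM of each of 8 gene families held by each member (vertical axis), by sample, with 4 points per group for control, 5 h and 24 h in D2O. In the glyceraldehyde-3-phosphate dehydrogenase and external NADH dehydrogenase families the minor gene gains its share between 5 h and 24 h. In histone H3 and H4 the shares of hht2 and hhf2 rise from control to 24 h, and those of hht1 and hhf1 fall. The share of hhf3 has its lowest mean at 5 h, and its control and 24 h samples overlap.

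Genes that glucose keeps low in this yeast were mostly higher. Of 11 such genes 9 rose and 1 fell, with a median log2 fold change of 1.00, and the invertase gene inv1 was not called (0.10, adjusted p = 0.572). One control, replicate 2, had the highest inv1 level of all, and without it inv1 was called higher (0.38, adjusted p = 0.00108). The highest log2 fold change of the list, 7.80, was also the highest of all protein-coding genes tested, and belonged to a gene other than gal10. The galactose gene gal10 rose 8.64-fold, from 13.1, 15.6, 13.2 and 12.1 to 116, 121, 112 and 118 CPM, although it overlaps SPBPB2B2.11. The hexose transporter gene ght7 rose from 1.65, 1.41, 1.81 and 1.81 to 21.3, 16.5, 21.2 and 18.5 CPM (log2 fold change 3.53, SE 0.14, adjusted p = 5.5e-12), and 5 of 8 transporters of the family rose. The citrate cycle and pyruvate dehydrogenase had 12 higher and 6 lower genes of 19. One of the lower members, lsc1, came in by its symbol and is annotated as a cyclin. The malate dehydrogenase gene mdh1 went from 131, 122, 129.8 and 101 to 432, 401, 418 and 421 CPM (log2 fold change 1.79, SE 0.078, adjusted p = 2.15e-11), having stood at 126 ± 8.78 at 5 h, and the isocitrate dehydrogenase gene idh1 rose from 82.2 ± 5.84 to 238 ± 11.0 (log2 fold change 1.53, SE 0.052, adjusted p = 1.39e-12). The largest fall of the list was in lat1, for the acetyltransferase subunit of pyruvate dehydrogenase, from 482 ± 32.1 to 259 ± 11.6 (log2 fold change -0.90, SE 0.071, adjusted p = 1.95e-08). Of 33 nuclear genes for the respiratory chain and ATP synthase 23 rose and 1, nde2, fell, with a median of 0.28. The mitochondrial genome's own genes did not follow, with 1 higher (cox1, 0.43) and 4 lower of 7, among them cox2 (-0.99) and cox3 (-0.79).

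Trehalose is a storage sugar and stress protectant. The neutral trehalase gene ntp1 rose from 109, 98.1, 103 and 88.9 to 544, 544, 494 and 547 CPM (log2 fold change 2.41, SE 0.071, adjusted p = 3.12e-13), and the synthase gene tps1, which overlaps dbl4, rose from 154 ± 9.46 to 471 ± 25.4 (log2 fold change 1.62, SE 0.063, adjusted p = 6.56e-12). Transcripts for both a synthetic and a degrading enzyme were thus higher. In the list of trehalose and glycerol genes 8 of 9 rose and 1, gpd2, fell. Of 20 genes for fatty acid and lipid metabolism 10 rose and 5 fell against control, and 16 were higher than at 5 h. The largest falls were in the fatty acid synthase genes, fas1 from 4166 ± 179 to 2844 ± 127 CPM (-0.55) and fas2 from 2491 ± 141 to 1551 ± 107 (-0.68, overlapping rog1), while are2, for an enzyme that esterifies sterols for storage, rose (log2 fold change 1.51, SE 0.063, adjusted p = 1.41e-11). Both synthase genes were above their 5 h levels, by log2 differences of 0.57 and 0.50. Of the 26 genes for ergosterol synthesis and its SREBP regulators 6 rose and 11 fell, around a median whose sign depends on the scaling. The regulator gene sre1 rose from 222, 198, 193 and 196 to 747, 651, 676 and 668 CPM (log2 fold change 1.76, SE 0.059, adjusted p = 1.16e-12), and 2 enzymes fell at least 2-fold, erg31 (-1.30) and erg1 (-1.07).

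Genes for taking up iron and zinc had some of the largest falls. Among 9 genes for iron and heme acquisition 6 were lower and 3 higher than control at 24 h. Their log2 fold changes ran from -3.84, the lowest of all protein-coding genes tested, to 2.26. The iron permease gene fip1 went from 269.8, 281, 284 and 272 CPM in the controls to 30.9, 26.4, 29.6 and 26.7 at 24 h (log2 fold change -3.28, SE 0.058, adjusted p = 1.81e-15), and the ferric reductase gene frp1 from 56.4, 69.2, 61.8 and 59.4 to 10.9, 12.3, 13.3 and 13.8 (log2 fold change -2.30, SE 0.10, adjusted p = 3.18e-11). Both had been above control at 5 h, with 354 ± 9.40 and 156 ± 20.6 CPM, and every gene of the list was lower at 24 h than at 5 h. The high-affinity zinc transporter gene zrt1, which overlaps sir2, had already dropped to 59.0 ± 4.71 CPM at 5 h and stood at 38.5, 37.98, 37.4 and 33.7 in the 24 h samples, against 436, 373, 383 and 374 in the controls (log2 fold change -3.41, SE 0.072, adjusted p = 1.01e-14). The zinc transporter gene zhf1 fell as well (log2 fold change -1.24, SE 0.05, adjusted p = 1.01e-11), and the zinc-responsive repressor gene loz1 rose (0.86, overlapping SPAC25B8.18). In the list of iron-sulfur and heme proteins 11 of 19 rose and 5 fell against control, and 17 were higher than at 5 h. Of the thiamine genes, 7 of 9 were higher, from tnr3 (0.57) to nmt1 (7.54), and the regulator gene thi1 was lower (log2 fold change -0.82, SE 0.032, adjusted p = 6.28e-12).

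Cells of this yeast part by digesting the septum between the daughters with secreted glucanases. All 8 genes of the cell separation list fell, 4 of them at least 2-fold, with a median log2 fold change of -0.88. The endoglucanase gene eng1, whose product cuts the primary septum, had a CPM of 671, 568, 581 and 637 in the controls and 181, 180.2, 185 and 154 at 24 h (log2 fold change -1.81, SE 0.08, adjusted p = 2.46e-11). The gene adg1, another member of this set, had 194, 172, 169 and 182 and 37.7, 37.6, 37.8 and 34.2 (log2 fold change -2.28, SE 0.066, adjusted p = 2.39e-13). The alpha-glucanase gene agn1, which overlaps mug5 and SPAC14C4.10c, fell from 167 ± 3.83 to 63.5 ± 6.01. In none of these 3 genes did the control and 24 h samples overlap.

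The wall itself showed a mixed picture. Of 9 glucan synthase genes 5 rose and 2 fell, the largest change being a rise of mok13, for an alpha-glucan synthase, from 129 ± 3.07 to 343 ± 11.8 CPM (log2 fold change 1.42, SE 0.044, adjusted p = 6.06e-13). Glucan remodelling genes split evenly, 6 to 6 of 13. The beta-glucosidase gene bgl2 rose from 135, 126, 131 and 109.9 to 638, 678, 615 and 586 CPM (log2 fold change 2.32, SE 0.091, adjusted p = 6.77e-12), and exg3 rose (1.78), on the opposite side from eng1 and agn1. In the cell wall integrity pathway 8 of 14 genes rose and 2 fell; the top kinase gene mkh1 rose (log2 fold change 1.07, SE 0.044, adjusted p = 1.08e-11) and the phosphatase gene pmp1 fell (log2 fold change -1.26, SE 0.093, adjusted p = 7.84e-09), though pmp1 overlaps the ribosomal protein gene rps1202. Adhesin genes went both ways, with pfl3 at 165 ± 5.96 and 53.2 ± 2.37 CPM and pfl6 at 1.59 ± 0.196 and 8.65 ± 0.578. The plasma membrane proton pump gene pma1, one of the more abundant transcripts, fell from 12157, 8832, 9490.1 and 9473 to 4971, 4712, 4353 and 3701 CPM (log2 fold change -1.17, SE 0.11, adjusted p = 1.10e-07).

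Cytoskeleton and cell cycle genes changed by less. Of 27 actin and cytokinetic ring genes 13 rose and 8 fell, none by 2-fold; the calmodulin gene cam1 rose most (log2 fold change 0.99, SE 0.043, adjusted p = 2.21e-11), and actin itself, act1, went from 3696, 3454, 3745 and 3555 to 5253, 5280.4, 5152 and 5159.6 CPM (log2 fold change 0.53, SE 0.037, adjusted p = 4.98e-09). Tubulin had a gene on the other side: nda2, for alpha-tubulin 1, fell from 449, 424, 485 and 425 to 240.2, 226, 229 and 193 (log2 fold change -1.01, SE 0.07, adjusted p = 4.01e-09). The second alpha-tubulin gene atb2 was not called (0.06, adjusted p = 0.249). Kinesin and spindle checkpoint genes rose in 11 of 17 cases, led by klp9, a motor of spindle elongation that overlaps ubc1 (1.15). The securin gene cut2 rose 3.01-fold, from 22.6, 19.6, 21.0 and 18.4 to 63.1, 58.6, 62.3 and 61.3 CPM (log2 fold change 1.59, SE 0.075, adjusted p = 5.34e-11). The mitotic kinase gene cdc2 was not called, at 60.9 ± 1.38 and 60.6 ± 4.89 CPM (log2 fold change -0.01, SE 0.05, adjusted p = 0.908). Replication genes leaned down, 12 lower and 5 higher of 21, with mcm7 of the replicative helicase lowest (log2 fold change -0.89, SE 0.045, adjusted p = 1.18e-10). This lean depends on the scaling: the median of the list was -0.23 with TMM and -0.04 with library size alone.

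Histone genes divided by copy. Histones H3 and H4 are each made from 3 gene copies. The pair hht2 and hhf2 rose, from 345, 301, 347 and 292 to 465, 473, 430.2 and 385 CPM and from 124, 133, 127 and 132 to 189, 204, 169.6 and 175, and the pair hht1 and hhf1 fell, from 608, 549.7, 668 and 549 to 234, 215, 210.1 and 181 and from 448, 408, 392 and 422 to 212, 226, 209 and 168. In none of the 4 genes did the control and 24 h samples overlap. All 11 genes of the histone list were called, 4 higher and 7 lower, and in all 11 the control and 24 h CPM did not overlap. The remaining pair is given by RPKM, which is not TMM scaled. The mean of hht3 was 365 ± 14.4 in the controls and 336 ± 26.2 at 24 h, and that of hhf3 was 242 ± 19.7 and 154 ± 9.95 (SD, n = 4). Per length, the share of hht2 in the H3 family went from 27.6% ± 0.481 to 49.98% ± 0.804 and that of hhf2 in the H4 family from 15.8% ± 0.610 to 34.4% ± 1.24 (SD, n = 4). The summed H4 level was 875 ± 48.6 RPKM in the controls and 653 ± 39.6 at 24 h, and that of H3 was 1365 ± 67.4 and 1171 ± 82.5 RPKM (SD, n = 4). These sums are likewise without TMM scaling, so their changes cannot be set directly beside those in CPM. Copies of H3 are 88.3% to 92.7% identical in coding sequence and copies of H4 91.4% to 93.3%, so the division of reads between them is uncertain.

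Signalling genes rose at several points of the glucose and stress pathways. In the cAMP and AMP kinase list 9 of 14 rose. The catalytic subunit gene pka1 went from 72.4, 71.3, 69.1 and 66.1 to 185, 179, 177 and 182 CPM (log2 fold change 1.37, SE 0.046, adjusted p = 1.09e-12), and its inhibitory partner cgs1 rose too (log2 fold change 1.33, SE 0.065, adjusted p = 7.56e-11). The stress transcription factor gene atf1 went from 140.4, 98.4, 108 and 106 to 384, 357, 336 and 355 CPM (log2 fold change 1.66, SE 0.093, adjusted p = 3.45e-10), and the phosphatase gene pyp1, which turns off the Sty1 kinase, rose (log2 fold change 1.20, SE 0.06, adjusted p = 9.61e-11). The kinase genes themselves were lower: wis1 fell (log2 fold change -0.58, SE 0.058, adjusted p = 2.77e-07) and sty1 had a log2 fold change of -0.40 (adjusted p = 1.79e-07). In the TOR pathway 9 of 17 genes rose and 2 fell. The kinase gene tor1, of TOR complex 2, rose from 240.0 ± 2.22 to 462 ± 11.9 (log2 fold change 0.94, SE 0.044, adjusted p = 4.04e-11), and tor2, of TOR complex 1, was not called (0.09, adjusted p = 0.0571), although it was called higher without control replicate 4 (0.11, adjusted p = 0.0373) or without 24 h replicate 3 (0.11, adjusted p = 0.0485). The genes cgs1, sty1, zuo1, zhf1, tnr3 and mei4 were called but fall outside the naming rule given under the methods, and were named after their values were seen.

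Genes of other cell states were looked at as a check on the label. The 7 meiosis and sporulation markers summed to 189.99 to 197.98 CPM in the controls and to 257 to 278 at 24 h, with 3 higher, 2 lower and none at 0 in any group. Of the wider meiosis list, the largest rise was in the kinase gene mug27, from 13.4, 11.8, 12.5 and 11.0 to 70.2, 78.9, 79.3 and 76.5 CPM (log2 fold change 2.65, SE 0.071, adjusted p = 1.02e-13), whereas the meiotic transcription factor gene mei4, which overlaps cdk9, fell (log2 fold change -0.35, SE 0.085, adjusted p = 0.00137). The 4 mating markers were all lower and summed to 327 to 349 CPM in the controls and 215 to 228 at 24 h. The wider mating list of 19 genes went both ways, with 7 higher and 10 lower, 2 at least 2-fold higher and 0 at least 2-fold lower. Its summed share of the signal was 0.139% ± 0.00654 in the controls and 0.180% ± 0.00490 at 24 h (SD over 4 samples). The master regulator of mating and meiosis, ste11, rose from 192, 154, 152 and 168 to 429, 394, 395 and 383 CPM (log2 fold change 1.27, SE 0.076, adjusted p = 8.03e-10), in contrast to the 4 mating markers. The part of any change in the makeup of the cultures in these values was not tested.

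Several of the largest rises were in genes outside these functions. The gene lsd90, for a protein annotated only by name, went from 32.1, 31.9, 31.2 and 26.2 CPM to 2499, 2142, 2133 and 2386 (log2 fold change 6.24, SE 0.13, adjusted p = 6.22e-15), which put it among the well-expressed genes at 24 h. The uncharacterised gene SPBC19C7.04c went from 39.1, 31.2, 27.7 and 25.2 to 1399, 1555, 1469 and 1358 (log2 fold change 5.55, SE 0.13, adjusted p = 2.76e-14), most of it after 5 h, when it was at 115 ± 9.99. The uncharacterised gene SPCC737.04 went from 8.51 ± 0.689 to 385 ± 48.5 (5.50), SPAC4H3.08, annotated as a 3-hydroxyacyl-CoA dehydrogenase, from 15.3 ± 1.33 to 484 ± 40.5 (4.98), and SPAC23H3.15c, annotated as protein Ddr48 and overlapping SPAC23H3.14, from 22.1 ± 3.57 to 738 ± 57.6 (5.06). SPBC1289.14, annotated as an adducin, was almost silent in the controls at 0.7003, 0.707, 0.716 and 0.236 CPM and stood at 107, 104, 100.4 and 105 at 24 h (log2 fold change 7.46, SE 0.13, adjusted p = 2.16e-15). The largest falls outside the iron and zinc genes were in SPAC8E11.10, annotated as a sorbose reductase, at 492, 525, 526 and 519 CPM in the controls and 44.7, 46.6, 51.1 and 42.0 at 24 h (log2 fold change -3.48, SE 0.07, adjusted p = 6.22e-15), in SPBC887.17, a transmembrane transporter gene overlapping hfi1 (log2 fold change -2.97, SE 0.10, adjusted p = 1.37e-12), and in pan5, annotated as a 2-dehydropantoate 2-reductase (log2 fold change -2.64, SE 0.062, adjusted p = 2.76e-14). Apart from the overlapping mcp7 (-0.15, adjusted p = 0.182), each of the 24 genes with the largest changes also differed between 24 h and 5 h.

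The remaining lists moved in both directions or by little. Of 20 nuclear pore genes 15 fell and 3 rose (median -0.28), with nup131 as the largest change, a rise of 1.19. Among 20 genes for proton pumps and cation transport 12 fell and 3 rose. Heterochromatin genes were 9 higher and 7 lower of 20, with the argonaute gene ago1 up (log2 fold change 1.12, SE 0.048, adjusted p = 1.63e-11) and the HP1 gene swi6 down (log2 fold change -0.69, SE 0.051, adjusted p = 8.03e-09). Endoplasmic reticulum folding genes were 7 higher and 5 lower of 13. DNA repair (12 and 11 of 32) and splicing (6 and 8 of 19) were close to even, around medians whose sign depends on the scaling, and mitochondrial ribosomal proteins (3 and 13 of 33) and peroxisome genes (2 and 5 of 10) leaned down with medians whose sign does too. With library size alone the falls in nuclear pore and proton pump genes numbered 9 and 6, the rises in ergosterol, splicing and mitochondrial ribosomal protein genes 14, 10 and 11, and those in TOR pathway genes 14.

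The late state was also set against 5 h in the same model. Between the exposure times 3559 of the 5089 genes (69.9%) differed, 1790 higher (35.2%) and 1769 lower (34.8%) at 24 h. At least 2-fold differences were found in 191 higher genes (3.75%) and 45 lower genes (0.884%). In 79 of 83 large subunit and 54 of 55 small subunit ribosomal protein genes the level at 24 h was below that at 5 h, with medians of -0.50 and -0.52. Autophagy and vacuolar protease genes were higher than at 5 h in 21 of 28 cases and proteasome genes in 24 of 34. Citrate cycle genes were higher than at 5 h in 14 of 19 cases, with a median log2 difference of 0.99, and their summed share was 0.360% ± 0.00567 at 5 h (SD over 4 samples) and moved from 0.462% ± 0.0119 in the controls to 0.756% ± 0.0146 at 24 h. Redox genes were nearer their 5 h levels, 5 higher and 8 lower of 20 with a median of -0.07. Their share of the signal was 2.0004% ± 0.0758 at 5 h and moved from 0.537% ± 0.0118 in the controls to 1.66% ± 0.0359 at 24 h.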

How the data were processed

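Reads had been aligned with BWA 0.7.12, per the submitters' processing notes; the genome build, annotation, counting program and strandedness are not given in the sources used here. Each deposited file gives a count of reads per feature, its length in bases and the authors' RPKM, which equals the count divided by the feature's length and by the file's total. Names and promoters came from RefSeq ASM294v3, to which 6845 of 7015 feature IDs matched and 170 did not, and only the promoter coordinates are on that build.

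Counts were scaled with TMM and tested with edgeR 4.0.16 (R 4.3.3) by the quasi-likelihood F test on all 12 samples with group as the only term. The low-count filter kept 6683 features (minimum count 10), p-values were Benjamini-Hochberg adjusted over them, and a gene was called at an adjusted p under 0.05. The SE is the log2 fold change over the square root of F. Shares of lists and families use the deposited RPKM. The script was tested on simulated data. Replicates were compared by chi-square on counts and none were merged. A count of 0 would allow up to 3 counts, or 0.104 to 0.126 CPM, and this covers counting error only. Of the protein-coding features, 2179 overlap another one, and strand is unknown, so shared reads cannot be told apart.

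Named genes are the 12 largest rises and 12 largest falls among called genes whose groups do not overlap and whose log2 CPM averages 3 or more, up to 2 called members per list in each direction, the 10 most abundant genes of the controls, and list members that were not called. The genes and the 63 lists were chosen with earlier results of these data known; 16 listed symbols matched no feature. Alternatives were median-of-ratios and library-size scaling, other low-count filters, DESeq2 1.42.0, a replicate block, the compared groups alone, protein-coding features alone and each replicate left out.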

Additional observations from a re-analysis of the deposited data

Results flagged for a closer look

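Of 248 groups of 4 values looked at for a sample standing apart from the other three, 18 were marked, where chance marks about 1 in 20; the number given is the gap to the nearest sample over the range of the group. The 24 h replicate 2 stood apart by its low protein-coding share (0.922) and its high rRNA share (0.978), and for gpd2 (0.982). The 24 h replicate 1 was highest for tef101 (0.92), tef102 (0.935), sod1 (0.856) and SPAC3G9.11c (0.872). The 24 h replicate 4 was lowest for the cell separation genes eng1 (0.847), adg1 (0.939) and agn1 (0.932) and highest for nde1 (0.923) and cox1 (0.841). The 24 h replicate 3 was lowest for ntp1 (0.949). Among the controls, replicate 1 was highest for zrt1 (0.831), replicate 3 was highest for has1 (0.895), and replicate 4 was lowest for cgs1 (0.913), lsd90 (0.849) and SPBC1289.14 (0.968).

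Of the genes named, 4 were called in opposite directions against control at 5 h and at 24 h. The log2 difference between 24 h and 5 h was 1.31 for met6, 1.37 for nde1, -3.64 for fip1 and -3.63 for frp1, each called by the edgeR test of that difference.

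Features outside the protein-coding set also moved. Of 1583 non-coding and other features tested, 649 were higher and 587 lower at 24 h, 249 of them at least 2-fold higher and 171 at least 2-fold lower. Of the 249, 121 overlap a protein-coding feature, whose reads cannot be told apart without strand.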

How the results depend on the processing

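The scaling moved the results most. With library size alone the higher and lower calls were 2736 and 1496 against 2143 and 2042 with TMM, at least 2-fold falls numbered 266 against 430, and the alpha-glucan synthase gene mok11, the kinesin gene klp2 and SPBC660.16, a pentose phosphate pathway gene, turned from slightly lower to log2 fold changes of 0.0886, 0.0422 and 0.0324, of which only that of mok11 was called (edgeR adjusted p = 0.045, 0.37 and 0.584). The all-gene median was then 0.19, and the cause was not tested beyond this shift. The medians of 7 lists changed sign with it and that of DNA repair with median-of-ratios scaling; the 7 were ergosterol synthesis, glucan remodelling, meiosis, mitochondrial ribosomal proteins, peroxisome, phosphate acquisition and splicing. DESeq2 called 4194 genes. Leaving out each replicate in turn gave 4080 to 4128 changed genes, 2088 to 2112 higher and 1987 to 2028 lower, 559 to 568 at least 2-fold higher and 396 to 441 at least 2-fold lower, with 3377 to 3559 between 24 h and 5 h and 16 to 19 lists moving one way. The same replicate numbers occur in each group. Same-numbered control and 24 h samples deviated together with correlations from -0.183 to 0.412, and differently numbered ones from -0.485 to 0.356. Between 5 h and 24 h the correlations were -0.128 to 0.585 for the same number and -0.447 to 0.189 for different numbers. These few mixed values cannot settle whether the numbers pair the samples. With a replicate block 4238 genes changed. Depth was even, and precision is limited by 4 samples a group.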
